A study of Mus musculus with 12 samples.

Results

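The glucocorticoid-responsive genes described here were the 8 genes Tsc22d3, Glul, Arrdc2, Map3k6, Cebpb, Cebpd, Tgm2 and Nfkbia, taken by name out of the 7318 genes listed in the count table. They were chosen by gene symbol, as genes known to respond to glucocorticoids, because the transgenes in these mice are driven by the hormone-responsive promoter of the mouse mammary tumour virus (MMTV). Earlier results of these data were known when the 8 genes and the lists below were chosen. Their counts beside the shares over all genes therefore do not come from a blind choice. All 8 passed the count filter in RNA and in footprints. The libraries came from mammary epithelial cells of 4-week-old female FVB/N mice with the genotype MMTV-Wnt1 / MMTV-iFgfr1. Mice in the AP20187 groups had received AP20187 intraperitoneally 6 h earlier, and mice in the vehicle groups had received vehicle for the same time. AP20187 is a bivalent compound that joins receptors carrying its binding domain, and iFGFR1 is the FGF receptor 1 made inducible in this way. All groups carried both transgenes, so MMTV-driven Wnt1 was also present in the vehicle groups, and no group received AP20187 without iFgfr1 or lacked Wnt1. The third, the fourth and the fifth glands were digested for 2 h at 37 °C in 1 mg/ml collagenase A while cycloheximide, which halts elongating ribosomes, was present at 100 µg/ml. The cells were enriched by short spins, and no cell sort is given. Each pellet gave an RNA library and a library of ribosome footprints, the RNA fragments that ribosomes protect from nuclease. There were 3 libraries in each of 4 groups, 12 in all, and whether a library stands for 1 mouse or several pooled mice is not stated, so p-values measure only the spread between these samples.

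The glucocorticoid receptor, encoded by Nr3c1, is a transcription factor that is held by chaperones in the cytoplasm and enters the nucleus when it binds its hormone. There it binds palindromic response elements in the DNA, often far from the gene, or works together with other factors such as C/EBP proteins and NF-kB. Glucocorticoids are needed for the differentiation of the lactating mammary gland, and the MMTV long terminal repeat is a classical promoter with elements that this receptor binds. Of the 8 genes, Tsc22d3 encodes GILZ, a leucine zipper protein that mediates anti-inflammatory actions of glucocorticoids. Arrdc2 encodes an alpha-arrestin, a class of adaptor proteins for ubiquitin ligases. Map3k6 encodes ASK2, a stress-activated kinase that works with ASK1. Glul encodes glutamine synthetase, which makes glutamine from glutamate and ammonia. Tgm2 encodes tissue transglutaminase, which cross-links proteins. Cebpb and Cebpd encode the transcription factors C/EBP beta and C/EBP delta, and in the mouse Cebpb is required for the development of the mammary epithelium. Nfkbia encodes IkB alpha, which holds NF-kB in the cytoplasm.

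The 250 bases before the annotated start are shown for Glul, Arrdc2 and Cebpb, because these are the promoters of genes whose RNA passed the test below, all from RefSeq on GRCm38.p6. RefSeq windows were matched for 6 of the 8 genes, as 8 windows, of which 3 belong to the alternative starts of Tsc22d3. Cebpd, whose RNA also passed, and Tgm2 had no matched window and were not searched for motifs. The Glul window lies at chr1:153899679-153899928 on the plus strand, the Arrdc2 window at chr8:70839721-70839970 on the minus strand and the Cebpb window at chr2:167688665-167688914 on the plus strand. Shorter stretches are shown for Nfkbia at chr12:55492648-55492706 and for Tsc22d3 at chrX:140600672-140600737, both on the minus strand, because they hold the only motif matches found. Capitals mark the match. All sequences read 5′ to 3′ on the strand of the gene.
Glul: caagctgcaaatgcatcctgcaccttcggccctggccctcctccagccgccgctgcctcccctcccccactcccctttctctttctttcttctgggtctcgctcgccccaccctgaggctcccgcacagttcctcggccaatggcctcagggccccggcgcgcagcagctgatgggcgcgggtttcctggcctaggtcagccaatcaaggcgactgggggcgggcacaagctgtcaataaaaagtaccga
Arrdc2: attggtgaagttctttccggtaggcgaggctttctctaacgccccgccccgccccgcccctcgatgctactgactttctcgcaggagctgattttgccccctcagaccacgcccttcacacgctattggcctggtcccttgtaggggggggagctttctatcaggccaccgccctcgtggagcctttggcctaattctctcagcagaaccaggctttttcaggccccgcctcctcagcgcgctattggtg
Cebpb: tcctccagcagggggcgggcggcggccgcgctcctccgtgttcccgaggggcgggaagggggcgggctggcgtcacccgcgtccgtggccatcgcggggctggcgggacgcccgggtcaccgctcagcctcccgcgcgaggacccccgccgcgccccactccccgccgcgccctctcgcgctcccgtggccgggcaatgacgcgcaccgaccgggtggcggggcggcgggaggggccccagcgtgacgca
Nfkbia: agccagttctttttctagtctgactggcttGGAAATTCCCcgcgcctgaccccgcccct
Tsc22d3: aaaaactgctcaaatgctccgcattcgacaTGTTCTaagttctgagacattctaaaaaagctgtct

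Both strands of the 8 windows were searched for the full glucocorticoid response element (AGAACA and TGTTCT with 3 bases of any kind between them), its hexamer AGAACA, the C/EBP palindrome TTGCGCAA, the NF-kB motif (GGGA, any base, then TTTCC) and the cyclic AMP response element TGACGTCA. The hexamer is contained in the full element. Nfkbia held 1 NF-kB match, GGAAATTCCC on the strand of the gene, with its first base 29 bases before the start. The distal start of Tsc22d3 had the hexamer once, read as TGTTCT on the strand of the gene, with its first base 185 bases before the start. No other match was found, which says only that these letters are not in these windows. Among 32817 RefSeq windows of the same length, the full element was found in 0.00914%, the hexamer in 16.1%, the C/EBP palindrome in 0.165%, the NF-kB motif in 0.357% and the cyclic AMP element in 1.55%. The GC content was 81.6% for Cebpb, 64.8% for Glul, 62.8% for Map3k6, 60.4% for Arrdc2 and 59.2% for Nfkbia, and 49.2% to 58.4% for the starts of Tsc22d3, against a median of 52.4% over all windows.

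Counts summed to between 94513818 and 251874393 per RNA library and between 1772969 and 11018709 per footprint library, so a limit of 3 counts stood at no more than 0.0317 CPM (counts scaled to a common library size) in RNA and 1.69 CPM in footprints. CPM values below use the library size scaled by the trimmed mean of M values (TMM), within RNA or within footprints. The pellets held markers of several cell types, and these moved between the groups. Luminal keratins and adhesion genes (6 of the 12 markers were listed) summed to 6158 to 8815 RNA CPM in AP20187 libraries and 3674 to 4645 in vehicle libraries, with 5 genes that rose and 1, Krt19 (log2 fold change -1.13, adjusted p = 0.0066), that fell. Basal markers (9 of 9) summed to 2766 to 4244 RNA CPM with AP20187 and 4953 to 5722 with vehicle, where 4 genes fell, Krt17 rose (0.89, adjusted p = 0.0206) and 4 did not pass, among them Krt5 (0.80) and Trp63 (0.60), which are named after their values were seen. Fibroblast markers (6 of 8) summed to 1272 to 1728 RNA CPM with AP20187 and 3382 to 5918 with vehicle, and to 3156 to 4804 footprint CPM with AP20187 and 11429 to 31309 with vehicle. Endothelial markers (4 of 7) summed to 286 to 327 and 531 to 717 RNA CPM in AP20187 and vehicle libraries, adipocyte markers (4 of 8) to 47.0 to 101 and 259 to 496, and Schwann cell markers (5 of 6) to 67.6 to 136 and 213 to 359. Markers of macrophages and other immune cells (3 of 8) overlapped in RNA, at 183 to 287 CPM with AP20187 and 220 to 448 with vehicle. Their footprint sums did not overlap, at 289 to 675 CPM with AP20187 and 820 to 964 with vehicle. Endothelial, adipocyte and Schwann cell footprint sums also lay lower with AP20187 without overlap. Footprint sums overlapped for luminal markers (7094 to 10976 CPM with AP20187, 6056 to 8376 with vehicle) and basal markers (2660 to 4120 and 3987 to 4983). AP20187 library 2 stood apart in the heat shock genes Hspa1a and Hspa1b, which had 2030 and 2433 RNA CPM there, against 101 to 161 in the other 5 RNA libraries. No listed marker was at 0 in every library of a group, and no red cell marker is in the table. In these bulk samples fewer cells of a type and less RNA per cell cannot be told apart, and the part of cell composition in the results below was not tested.

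Per kilobase of annotated exon, the RNA of the 8 genes spanned a wide range, with Nfkbia at the top and Arrdc2 at the bottom. Nfkbia stood at 629 ± 170 CPM per kb with AP20187 and 747 ± 177 with vehicle (SD, n = 3 each). Cebpb followed at 224 ± 12.6 with AP20187 and 167 ± 10.1 with vehicle, and Cebpd at 177 ± 10.1 and 242 ± 8.72. On this scale the order of these paralogs was reversed between the groups. That reversal rests on annotated exon lengths of 1504 bases for Cebpb and 3746 for Cebpd, and the counted region is not stated. Without length correction Cebpd was above Cebpb in every RNA library. Tgm2 stood at 70.8 ± 17.4 with AP20187 and 107 ± 17.2 with vehicle, and Glul at 34.7 ± 14.8 and 98.2 ± 9.49, so that with vehicle these neighbours in the order lay within their spread. Below them were Tsc22d3 at 21.7 ± 6.26 and 29.0 ± 3.43, Map3k6 at 14.0 ± 2.53 and 18.1 ± 2.09, and Arrdc2 at 8.28 ± 0.688 and 15.2 ± 2.15 CPM per kb with AP20187 and vehicle. In vehicle libraries Map3k6 and Arrdc2 differed by less than the sum of their SDs. Per kilobase of coding sequence, footprints placed Cebpd first in both groups, at 4699 ± 1177 CPM per kb with AP20187 and 9692 ± 347 with vehicle, then Cebpb at 4018 ± 969 and 3723 ± 529. With AP20187 the footprint levels of Cebpd and Cebpb lay within their spread. Glul and Map3k6 were lowest in footprints with AP20187, at 22.0 ± 14.3 and 19.9 ± 5.39 CPM per kb of coding sequence.

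The RNA comparison asked which of these genes moved 6 h after iFGFR1 activation. Glul, Arrdc2 and Cebpd RNA fell and Cebpb RNA rose, while Tsc22d3, Map3k6, Tgm2 and Nfkbia did not pass the test. With edgeR's quasi-likelihood test and an adjusted p threshold of 0.05, 3 of the 8 were lower, against 13.9% of all 7314 genes tested, and 1 was higher, against 12.4%. The background for either direction was 26.2%, and the 4 calls were also made by limma voom, which called 27.3% of all genes. The median log2 fold change of the 8 was -0.44, and that of all genes tested was 0.01. Values of 3 genes (Glul, Arrdc2 and Cebpd) lay below the vehicle libraries without overlap, against 23.1% of all genes, and 1 (Cebpb) lay above, against 21.9%.

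**Figure D1:**
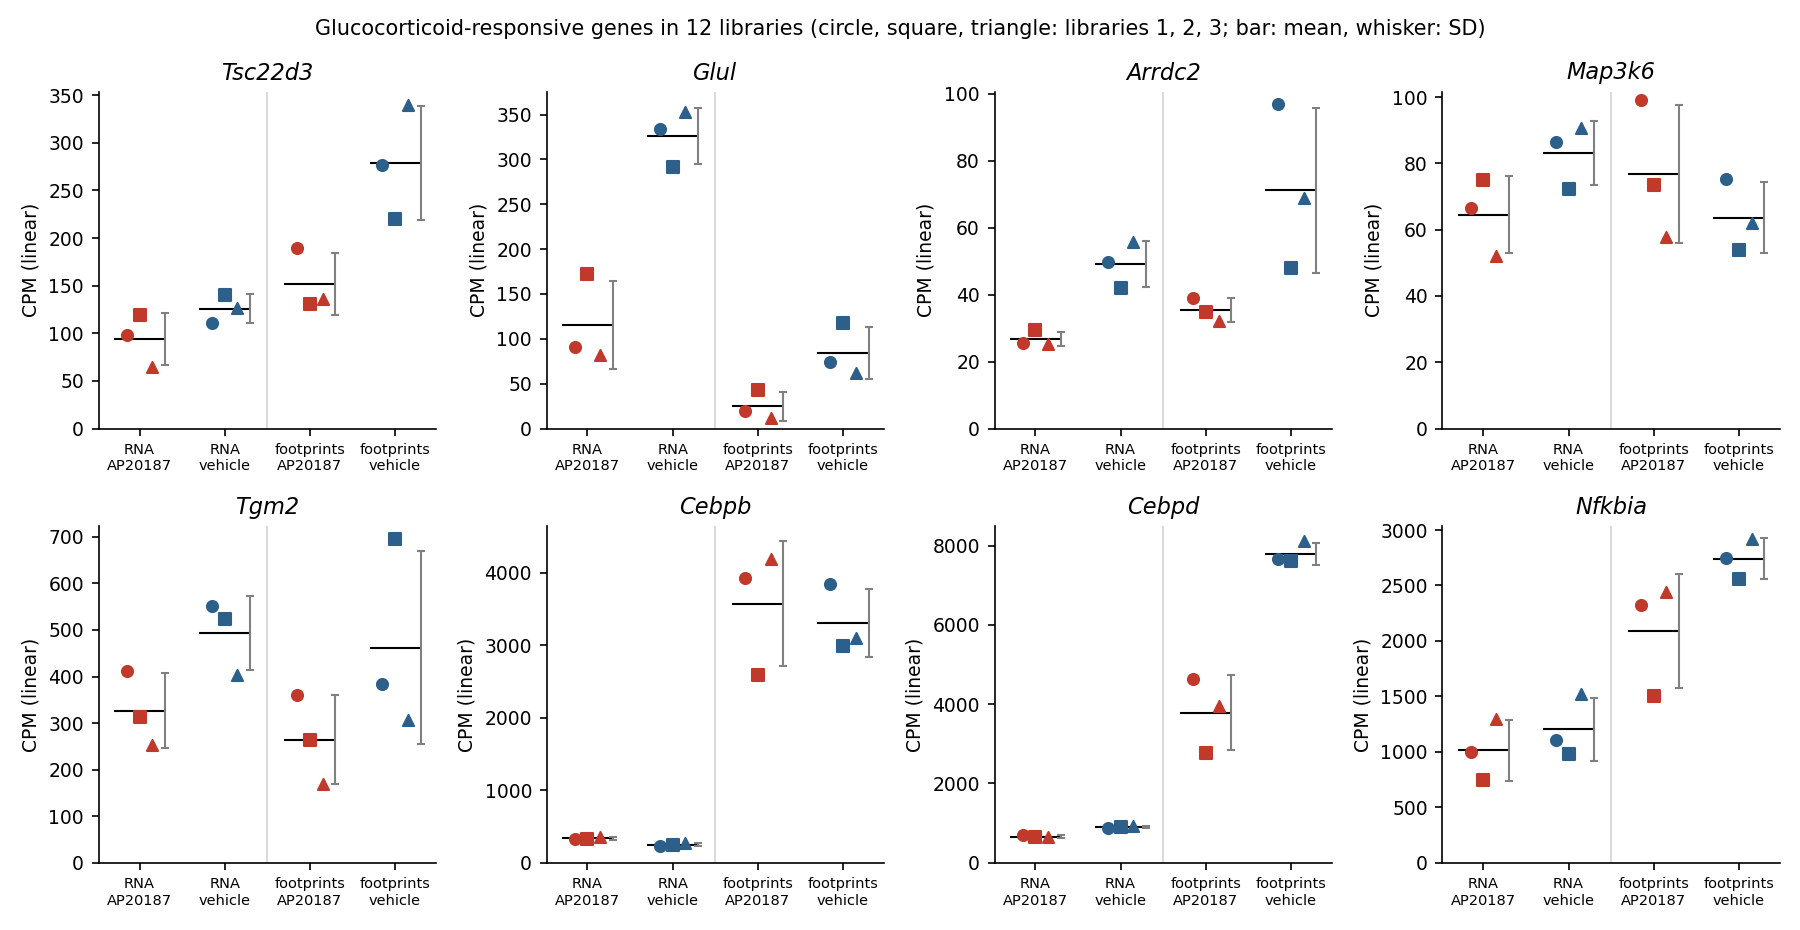
CPM on a linear axis for each of the 8 genes in the 12 libraries, RNA left and footprints right of the grey line, AP20187 in red and vehicle in blue; symbols are libraries 1 to 3, bars are means and whiskers SD (n = 3). Glul RNA lies at 82.2 to 172 CPM with AP20187, below all vehicle libraries, and Cebpd footprints lie at 2756 to 4623 CPM with AP20187, below all vehicle libraries.

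Among the signalling regulators, Tsc22d3 (chrX:140539528-140600659, minus strand, GRCm38) had 98.1, 119 and 65.0 RNA CPM in AP20187 libraries 1, 2 and 3, against 111, 141 and 127 in vehicle libraries 1, 2 and 3. The groups overlapped, since AP20187 library 2 lay above vehicle library 1. Its log2 fold change was -0.42 ± 0.22 (SE; 95% interval -0.92 to 0.07; adjusted p = 0.177). Arrdc2 (chr8:70835129-70839720, minus strand) had 25.7, 29.3 and 25.3 RNA CPM in AP20187 libraries, against 49.8, 42.0 and 55.8 in vehicle libraries. All 3 AP20187 libraries were lower than every vehicle library, the mean was 26.8 ± 2.22 CPM with AP20187 and 49.2 ± 6.94 with vehicle (SD, n = 3 each), and the RNA was 1.84-fold lower (log2 fold change -0.88 ± 0.16, adjusted p = 0.00971). That call held when each RNA library was left out in turn, with adjusted p between 0.00736 and 0.0463. Map3k6 (chr4:133240818-133252929, plus strand) had 66.6, 74.9 and 51.9 RNA CPM with AP20187, against 86.6, 72.3 and 90.5 with vehicle. Its groups overlapped through the second library of each, and the log2 fold change of -0.37 ± 0.17 (95% interval -0.76 to 0.02) did not pass the test (adjusted p = 0.141).

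Of the enzymes, Glul (chr1:153899944-153909723, plus strand) had the largest fold change of the 8. It had 91.4, 172 and 82.2 RNA CPM in AP20187 libraries 1, 2 and 3, against 334, 292 and 353 in vehicle libraries. AP20187 library 2, the one with the high heat shock RNA, was the highest of its group and still below every vehicle library. Glul RNA averaged 115 ± 49.2 CPM with AP20187 and 326 ± 31.5 with vehicle (SD, n = 3 each), 2.83-fold lower (log2 fold change -1.50 ± 0.27, 95% interval -2.13 to -0.88, adjusted p = 0.0097). The call held without each library in turn, with adjusted p between 0.00107 and 0.0381, and without RNA AP20187 library 2 the log2 fold change was -1.90. The basal, fibroblast, endothelial, adipocyte and Schwann cell RNA sums given above also did not overlap between the groups and were lower with AP20187. The luminal sum did not overlap and was higher. Whether cell composition bears on Glul was not tested. Tgm2 (chr2:158116402-158146436, minus strand) had 413, 313 and 254 RNA CPM with AP20187, against 552, 523 and 402 with vehicle. AP20187 library 1 lay above vehicle library 3, so the groups overlapped. The log2 fold change of -0.59 ± 0.21 missed the threshold (adjusted p = 0.0679), while DESeq2 gave an adjusted p of 0.0253. Tgm2 shares exon positions with Rprd1b and Gm20412 on the other strand, and whether the counting used strand is not stated. Glul shares them with Mir8114 on the same strand and Teddm2 on the other strand, and neither of these is among the listed genes.

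The paralogs Cebpb and Cebpd moved in opposite directions in RNA. Cebpb (chr2:167688915-167690418, plus strand) had 323, 331 and 359 RNA CPM in AP20187 libraries, against 236, 251 and 267 in vehicle libraries. Every AP20187 library was above every vehicle library, with means of 338 ± 18.9 and 251 ± 15.1 CPM for AP20187 and vehicle (SD, n = 3 each) and a log2 fold change of 0.43 ± 0.12 (95% interval 0.14 to 0.71, adjusted p = 0.0393). Cebpd (chr16:15887286-15891031, plus strand) had 705, 638 and 641 RNA CPM with AP20187, against 874, 908 and 939 with vehicle. Here every AP20187 library was below every vehicle library, the means were 661 ± 37.8 and 907 ± 32.7 CPM for AP20187 and vehicle, and the RNA was 1.37-fold lower (log2 fold change -0.46 ± 0.14, 95% interval -0.77 to -0.15, adjusted p = 0.0407). Both calls sat close to the threshold. Cebpb lost its call without RNA vehicle library 1 (adjusted p = 0.156), 2 (0.055) or 3 (0.103), and without RNA AP20187 library 1 (0.0829) or 3 (0.0904), and kept it without AP20187 library 2 (0.0384). Cebpd lost its call without RNA vehicle library 1 (adjusted p = 0.127), 2 (0.0616) or 3 (0.145), and without RNA AP20187 library 1 (0.102), 2 (0.0705) or 3 (0.111), with log2 fold changes between -0.49 and -0.42 throughout. In a model of all 12 libraries, edgeR gave an adjusted p of 0.249 for Cebpb and 0.196 for Cebpd. Cebpb shares exon positions with Tmem189 on the other strand, which had 41.4 to 70.7 RNA CPM, and Cebpd shares them with Spidr, which is not in the table.

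Nfkbia (chr12:55489410-55492647, minus strand) had 998, 746 and 1294 RNA CPM in AP20187 libraries 1, 2 and 3, against 1105, 981 and 1524 in vehicle libraries 1, 2 and 3. The third library was the highest and the second the lowest in each group, and the groups overlapped. The log2 fold change was -0.25 ± 0.25 (95% interval -0.81 to 0.32, adjusted p = 0.478).

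In footprints, none of the 8 genes passed edgeR's test in the comparison of the 6 footprint libraries (0 higher and 0 lower), against 0.937% of 7041 genes higher, 1.6% lower and 2.54% in either direction. Of the 8, 4 had an unadjusted p under 0.05. DESeq2 called 3 lower (Tsc22d3, Glul and Cebpd) and 0 higher, against 4.48% lower, 3.03% higher and 7.5% in either direction over all genes. With limma voom 2 were lower (Glul and Cebpd) and 0 higher, against 2.2% lower, 1.08% higher and 3.28% in either direction. Footprint libraries with the same number deviated together between the groups, though the labels do not say what the number stands for. With the library number as a block, edgeR called 4 of the 8 lower (Tsc22d3, Glul, Arrdc2 and Cebpd). Over all genes it called 5.14% lower, 5.01% higher and 10.2% in either direction. Values of 5 genes (these 4 and Nfkbia) lay below the vehicle libraries without overlap, against 11.5% of all genes. The median log2 fold change was -0.85 over the 8 genes and 0.03 over all genes tested.

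Tsc22d3 had 189, 131 and 136 footprint CPM in AP20187 libraries 1, 2 and 3, against 277, 220 and 340 in vehicle libraries. All AP20187 libraries were lower than all vehicle libraries, whereas its RNA groups overlapped. In footprints the log2 fold change was -0.89 ± 0.27 (SE), with adjusted p = 0.122 in edgeR without the block and 0.0158 with it. Arrdc2 had 39.1, 34.8 and 32.0 footprint CPM with AP20187, against 97.0, 47.8 and 68.8 with vehicle. The groups did not overlap, the vehicle libraries were spread more widely, and the log2 fold change was -1.02 ± 0.32 (adjusted p = 0.133 without the block and 0.0382 with it). Map3k6 was the exception among the signalling genes, with 99.2, 73.6 and 57.8 footprint CPM with AP20187, against 75.2, 53.8 and 62.0 with vehicle. Its groups overlapped and its log2 fold change was 0.26 ± 0.29 (95% interval -0.38 to 0.90, adjusted p = 0.735).

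Glul had 20.0, 42.5 and 11.5 footprint CPM in AP20187 libraries, from 212, 138 and 43 counts, against 74.1, 117 and 62.0 CPM in vehicle libraries, from 136, 216 and 238 counts. The second library was the highest of each group, and no AP20187 library reached a vehicle library. Its footprint log2 fold change was -1.80 ± 0.46 (adjusted p = 0.0714), with the library number as a block it was -1.92 (adjusted p = 0.000914), and without footprint AP20187 library 2 it was -2.41 (adjusted p = 0.0249). Tgm2 had 361, 263 and 170 footprint CPM with AP20187, against 383, 696 and 307 with vehicle. AP20187 library 1 lay above vehicle library 3, and vehicle library 2 stood above the other 5 libraries. The log2 fold change of -0.81 ± 0.37 did not pass the test (adjusted p = 0.303 without the block and 0.0561 with it), and it was -0.39 without footprint vehicle library 2.

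Cebpb had 3931, 2586 and 4188 footprint CPM in AP20187 libraries, against 3845, 2982 and 3092 in vehicle libraries. The groups overlapped, and the log2 fold change was 0.10 ± 0.28 (95% interval -0.52 to 0.72, adjusted p = 0.915). Cebpd had 4623, 2756 and 3955 footprint CPM with AP20187, against 7662, 7602 and 8113 with vehicle. The 3 vehicle libraries lay close together and far above the AP20187 libraries, with means of 3778 ± 946 CPM with AP20187 and 7793 ± 279 with vehicle (SD, n = 3 each). For Cebpd footprints the log2 fold change was -1.06 ± 0.28 (95% interval -1.66 to -0.45), with adjusted p = 0.0747 without the block and 0.00627 with it. Nfkbia had 2325, 1503 and 2441 footprint CPM with AP20187, against 2750, 2556 and 2921 with vehicle. No AP20187 library reached the lowest vehicle library, but the log2 fold change of -0.40 ± 0.28 did not pass the test (adjusted p = 0.529 without the block and 0.235 with it).

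**Figure D2:**
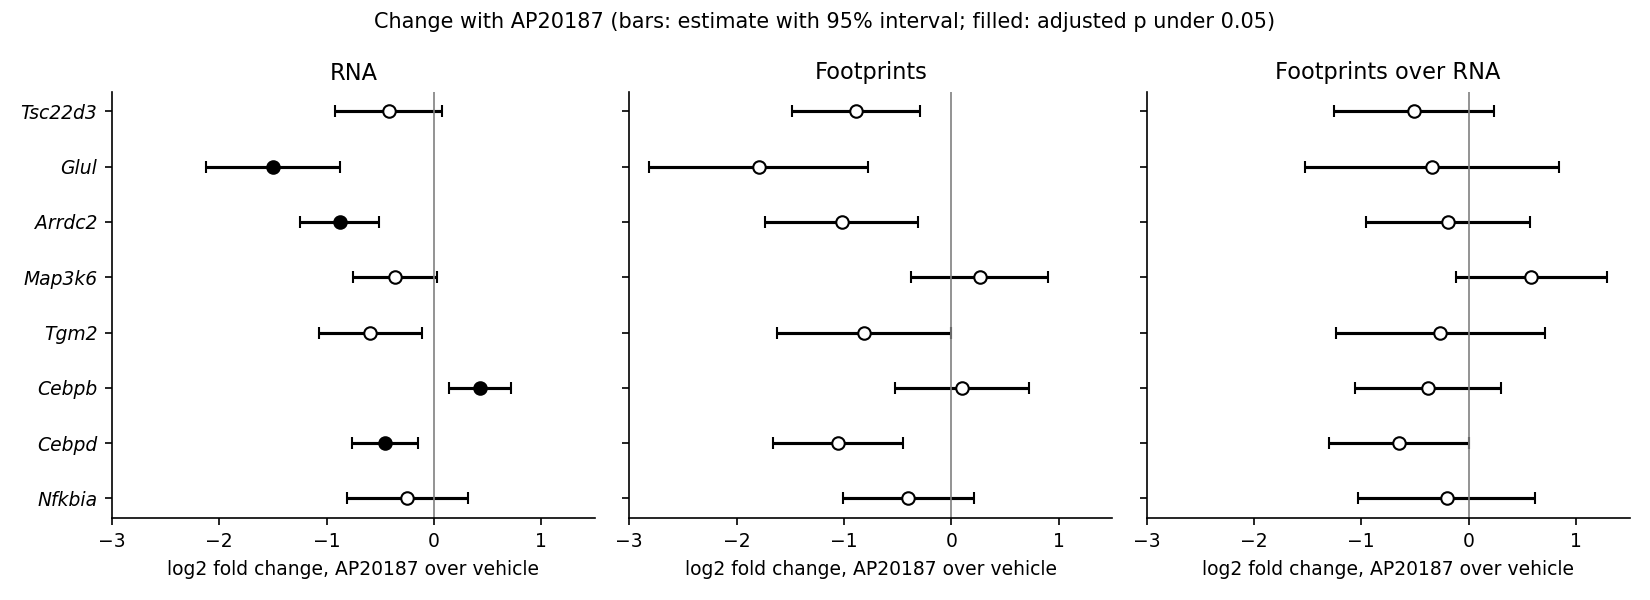
Log2 fold change, AP20187 over vehicle, of the 8 genes in RNA, in footprints and in footprints over RNA; points are edgeR estimates, bars are 95% intervals and filled points have an adjusted p under 0.05 (n = 3 libraries per group). Filled points appear in the RNA panel only, for Glul, Arrdc2, Cebpb and Cebpd.

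Translational efficiency, the ratio of footprints to RNA, was compared between AP20187 and vehicle as an interaction in edgeR over the 12 libraries. That fit, also used below for footprints relative to RNA, did not model that RNA and footprint libraries share pellets. None of the 8 genes passed (0 by edgeR, 0 at an unadjusted p under 0.05, 0 by DESeq2 and 0 by limma voom), against a background of 0% of 7315 genes by edgeR, where 350 had an unadjusted p under 0.05, DESeq2 called 10 (0.137%, with 0.109% higher and 0.0274% lower) and limma voom called 0. The difference closest to the threshold was that of Cebpd, with a log2 change of -0.65 ± 0.30 (95% interval -1.30 to 0.0034, unadjusted p = 0.051, adjusted p = 0.988). In single pellets the log2 ratio of footprints to RNA for Cebpd was 2.71, 2.11 and 2.62 with AP20187, against 3.13, 3.07 and 3.11 with vehicle. These groups did not overlap. Map3k6 had the opposite sign, with a log2 change of 0.58 ± 0.33 (95% interval -0.12 to 1.28, adjusted p = 0.988). Its pellet ratios were 0.57, -0.03 and 0.16 with AP20187, against -0.20, -0.43 and -0.55 with vehicle, again without overlap. Over all genes, 5.81% had pellet ratios above without overlap and 6.03% below, against 1 of the 8 genes in each direction. The other 6 genes had log2 changes between -0.51 (Tsc22d3) and -0.19 (Arrdc2), each with an interval that included 0.

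The level of footprints relative to RNA differed far more between the genes than between the treatments. This ratio is not corrected for length, and footprints cover the coding part of a transcript while poly(A) RNA covers all of it. Cebpb and Cebpd stood near the top of all genes in the fit of all 12 libraries, which scales RNA and footprints together. In that fit footprints stood 11.3-fold and 6.11-fold above RNA with AP20187, and 14.7-fold and 9.57-fold with vehicle. These folds differ from ratios of the CPM values above, which were scaled within each assay. In log2 units Cebpb stood at 3.50 with AP20187 (adjusted p = 2.41e-07, percentile 99.2 of all genes) and 3.87 with vehicle (adjusted p = 1.28e-07, percentile 99.1). Cebpd stood at 2.61 with AP20187 (adjusted p = 1.66e-06, percentile 98.8) and 3.26 with vehicle (adjusted p = 2.72e-07, percentile 99.0). Nfkbia was at 1.14 with AP20187 (adjusted p = 0.00502) and 1.34 with vehicle (0.00117), and Tsc22d3 at 0.80 (0.0193) and 1.31 (0.00065). Glul lay at the other end, at -2.15 with AP20187 (adjusted p = 0.000918, percentile 4.28) and -1.81 with vehicle (0.00184, percentile 8.19).

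With AP20187, 4 of the 8 genes were higher in footprints than in RNA and 1 was lower, against 19.4% and 20.5% of all genes (39.9% in either direction). With vehicle, 5 were higher and 1 lower, against 26.7% and 24.2% (50.9% in either direction). The gene that made the difference was Arrdc2, at 0.50 with AP20187 (adjusted p = 0.132) and 0.69 with vehicle (adjusted p = 0.0345). Its vehicle call was lost without RNA vehicle library 1 (adjusted p = 0.0828) or 2 (0.117), footprint vehicle library 1 (0.26) or 3 (0.0742), or footprint AP20187 library 1 (0.0654) or 3 (0.0519), and the interaction above does not separate the treatments. The Tsc22d3 call with AP20187 was lost without RNA AP20187 library 1 (adjusted p = 0.0509) or 3 (0.0819) or footprint AP20187 library 1 (0.105). Map3k6 and Tgm2 passed in neither group, with Map3k6 at 0.35 with AP20187 and -0.23 with vehicle, and Tgm2 at -0.21 and 0.06.

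**Figure D3:**
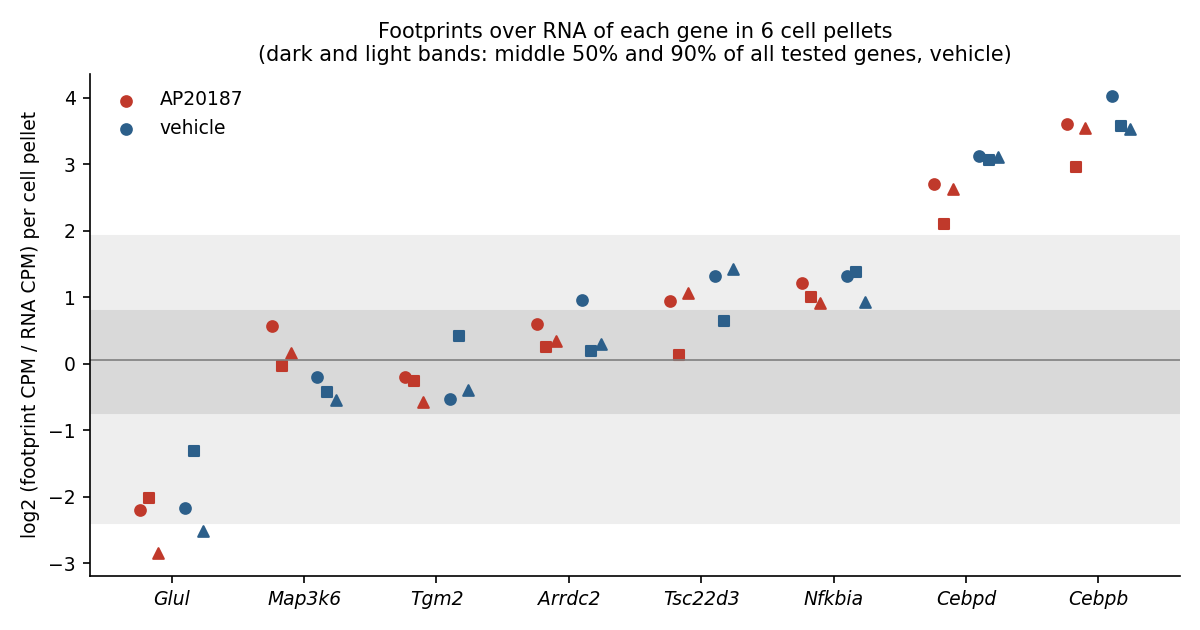
Log2 ratio of footprint CPM to RNA CPM in each of the 6 cell pellets for the 8 genes, AP20187 in red and vehicle in blue, symbols for pellets 1 to 3; the dark and light bands hold the middle 50% and 90% of all tested genes with vehicle. The bands come from the fit of all 12 libraries, which scales RNA and footprints together, while the points use CPM scaled within each assay. Places of points against the bands are therefore approximate, and AP20187 pellets are also set against vehicle bands. As drawn, Cebpb and Cebpd lie above the light band in all 6 pellets, at 2.97 to 4.02 and 2.11 to 3.13. The pellet ratios of Glul are all below 0.

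Because Cebpb and Cebpd bind the same DNA motif as dimers, the ratio of their counts was taken within each library, where it does not depend on the library scaling. This ratio was chosen after the values of both genes had been seen. In RNA it was 2.18, 1.93 and 1.79 in AP20187 libraries 1, 2 and 3, against 3.70, 3.62 and 3.52 in vehicle libraries. In footprints it was 1.18, 1.07 and 0.944 with AP20187, against 1.99, 2.55 and 2.62 with vehicle. Neither assay showed any overlap, and the library with the highest ratio with AP20187 lay below the lowest with vehicle. The mean RNA ratio was 1.97 ± 0.202 with AP20187 and 3.61 ± 0.0878 with vehicle (SD, n = 3 each), 1.84-fold lower. The mean footprint ratio was 1.06 ± 0.116 with AP20187 and 2.39 ± 0.345 with vehicle, 2.24-fold lower, so that Cebpd and Cebpb gave about equal footprint counts with AP20187. No test is given, because the ratio was picked from these values, and the RNA and footprint libraries come from the same pellets.

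**Figure D4:**
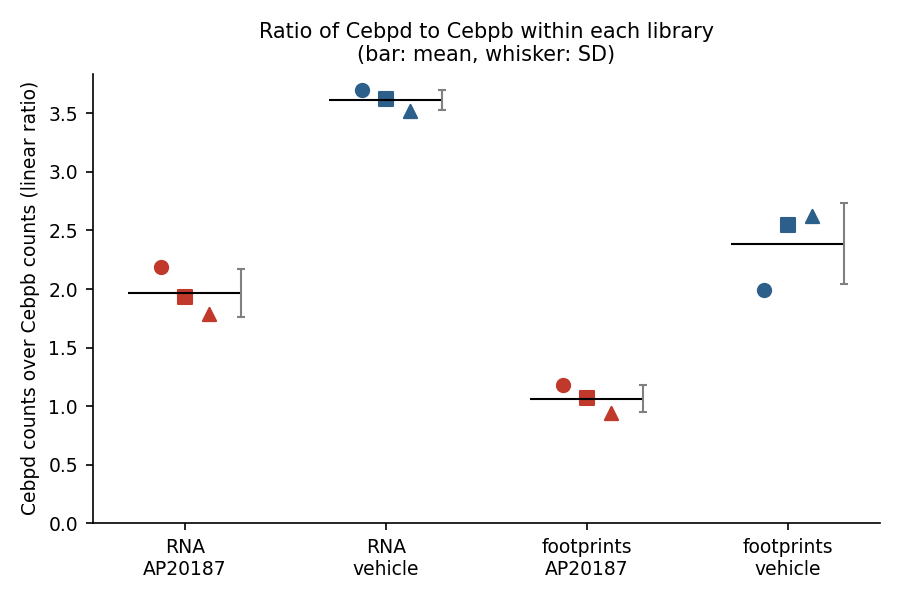
Cebpd counts divided by Cebpb counts in each library (linear axis from 0), AP20187 in red and vehicle in blue, for RNA and footprints; symbols are libraries 1 to 3, bars are means and whiskers SD (n = 3). The AP20187 ratios lie at 1.79 to 2.18 in RNA and 0.944 to 1.18 in footprints, below every vehicle ratio of the same assay.

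Other genes known to respond to glucocorticoids moved in both directions. Of 40 listed, 13 were in the table and tested, and in RNA 5 rose, 3 fell and 5 did not pass, against 12.4% of all genes higher and 13.9% lower, with a median log2 fold change of 0.35. Fkbp5, which encodes a co-chaperone of the receptor and is a widely used readout of its activity, averaged 156 ± 34.1 RNA CPM with AP20187 and 53.1 ± 7.96 with vehicle (log2 fold change 1.55 ± 0.19, adjusted p = 0.0059). Lcn2, which encodes the iron-siderophore binding protein lipocalin 2, averaged 4139 ± 902 with AP20187 and 1108 ± 512 with vehicle (1.90 ± 0.34, adjusted p = 0.0095). Rhob, a small GTPase, rose to 1157 ± 96.7 RNA CPM with AP20187, against 668 ± 17.7 with vehicle (0.79 ± 0.14, adjusted p = 0.00932). These 3 calls held without each RNA library in turn. Among the 3 that fell were Anxa1 and Gpx3, named after their values were seen. Anxa1 averaged 699 ± 59.3 RNA CPM with AP20187 and 1498 ± 363 with vehicle (-1.10 ± 0.20, adjusted p = 0.0097). Gpx3 averaged 18.9 ± 16.1 and 71.4 ± 32.6 RNA CPM with AP20187 and vehicle (-1.92 ± 0.60, adjusted p = 0.0469), and its RNA groups overlapped. In footprints 1 of the 13 was called, Gpx3, named here after its value was seen, a secreted glutathione peroxidase with a log2 fold change of -2.37 ± 0.52 (adjusted p = 0.0405), and 0 were higher, against 1.6% of all genes lower and 0.937% higher. Without footprint vehicle library 1, 2 or 3 or AP20187 library 1, edgeR called 0 genes lower in footprints, Gpx3 included. With the library number as a block, footprints of Fkbp5 (1.24, adjusted p = 0.00742) and Lcn2 (1.20, adjusted p = 0.00253) also rose.

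**Figure D5:**
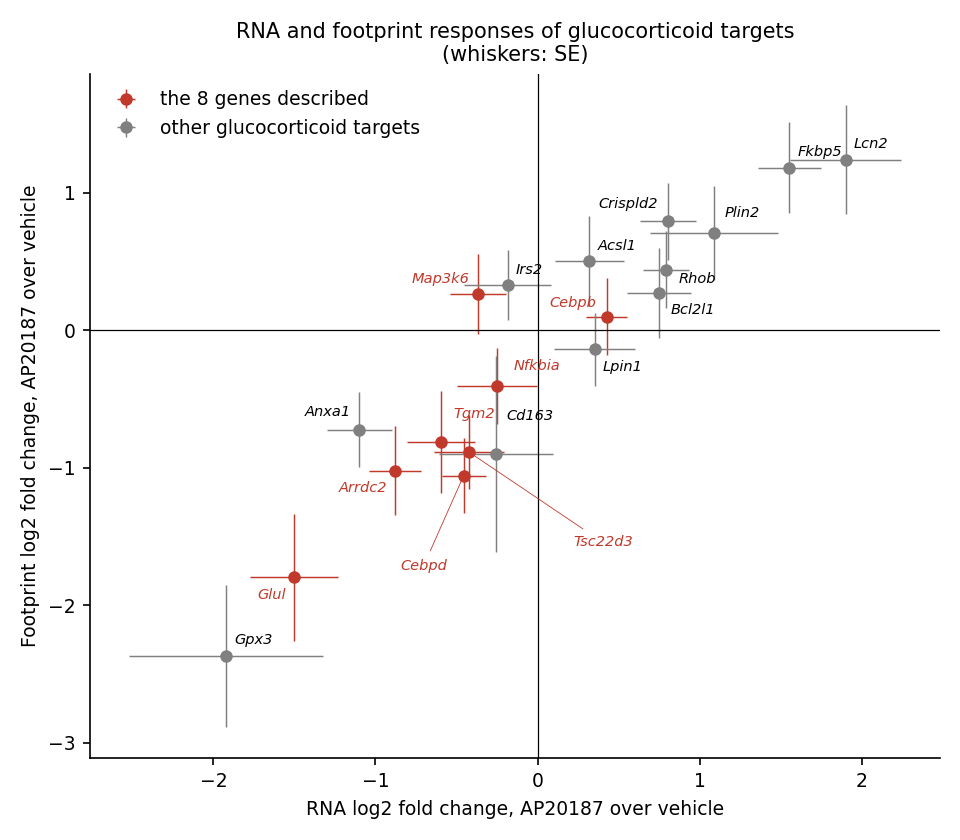
RNA log2 fold change (x axis) against footprint log2 fold change (y axis), AP20187 over vehicle, for the 8 genes (red) and 12 of the 13 other glucocorticoid targets in the table (grey), with SE as whiskers (n = 3 libraries per group and assay). Glul lies at -1.50 and -1.80 and Fkbp5 at 1.55 and 1.18, so known targets of the receptor are found at both ends.

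The receptor itself did not pass the test. Nr3c1 had 155, 140 and 129 RNA CPM with AP20187, against 172, 155 and 178 with vehicle (log2 fold change -0.25 ± 0.13, adjusted p = 0.171), and the groups overlapped. Its footprints were 29.7, 81.6 and 17.6 CPM with AP20187, against 45.2, 40.8 and 37.3 with vehicle (0.05 ± 0.49, adjusted p = 0.98), and without footprint AP20187 library 2 the log2 fold change was -0.79. Among 25 tested genes of the receptor, its chaperones and its cofactors, of 29 listed, 2 rose, 1 fell and 22 did not pass in RNA, a smaller share than the 26.2% of all genes called in either direction, with a median of 0.07. The 2 were Fkbp5 and the co-chaperone Fkbp4 (0.82 ± 0.20, adjusted p = 0.0236), whose call was lost without RNA vehicle library 1 (adjusted p = 0.0795) or 3 (0.0936). The 1 that fell was the coactivator Crebbp (-0.80 ± 0.25, adjusted p = 0.0482), whose adjusted p was between 0.0538 and 0.168 without RNA vehicle library 1 or 3 or any AP20187 library. In footprints edgeR called 0 of the 25 higher and 1 lower, against 0.937% and 1.6% of all genes. The 1 was Dnajb1, named after its value was seen (-1.84 ± 0.32, adjusted p = 0.021). Without footprint vehicle library 1, 2 or 3 or AP20187 library 1, edgeR called 0 genes lower in footprints, Dnajb1 included.

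The genes placed under the MMTV promoter as transgenes, Wnt1 and Fgfr1, rose in RNA. Wnt1 had 184, 313 and 165 RNA CPM with AP20187, against 30.6, 45.0 and 11.2 with vehicle (log2 fold change 2.93 ± 0.48, adjusted p = 0.00791). Fgfr1 had 756, 1100 and 575 RNA CPM with AP20187, against 340, 366 and 268 with vehicle (1.32 ± 0.25, adjusted p = 0.0106). Neither gene overlapped between the groups, and counts by gene symbol do not separate transgene from endogenous RNA. Both calls held without each RNA library in turn. In footprints Fgfr1 passed (1.96 ± 0.36, adjusted p = 0.0237), though not without footprint vehicle library 1 (adjusted p = 0.0701), 2 (0.0916) or 3 (0.0786) or footprint AP20187 library 1 (0.0525). Footprints of Wnt1 did not pass without the block (1.78, adjusted p = 0.0659) and passed with it (1.99, adjusted p = 0.000768).

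Relatives and partners of the 8 genes were examined from lists drawn up by function or name. Of 7 genes listed under the C/EBP name, 4 were tested. Cebpb rose, Cebpd and Cebpg fell and Cebpz did not pass, against 12.4% of all genes higher and 13.9% lower. The median log2 fold change of the 4 was -0.29. Cebpg, a partner without an activation domain, had a log2 fold change of -0.44 ± 0.14 (adjusted p = 0.0472), lost without any RNA library except vehicle library 2 (adjusted p between 0.0731 and 0.192). Of 14 tested NF-kB and IkB genes (26 listed, Nfkbia among them), 1 rose, 3 fell and 10 did not pass, which is close to the 26.2% called over all genes, with a median of -0.26. Sod2, a mitochondrial superoxide dismutase, rose (0.90, adjusted p = 0.0322), and the inhibitor Tnip2 (-0.67, adjusted p = 0.0168), the adhesion molecule Icam1 (-0.99, adjusted p = 0.0258) and the NF-kB subunit Rela (-0.55, adjusted p = 0.0488) fell. Each of these 4 calls was lost without RNA vehicle library 1 (adjusted p between 0.0537 and 0.148), without RNA vehicle library 3 (0.0757 to 0.188) or without RNA AP20187 library 1 (0.0552 to 0.11), among others. In footprints edgeR called 0 of the 14 higher and 1 lower, Icam1 (-1.63, adjusted p = 0.0388), against 0.937% and 1.6% of all genes. Icam1 lost this footprint call without each footprint library in turn (adjusted p between 0.0551 and 0.117). Of the 8 tested paralogs (14 listed), edgeR called 0 higher and 0 lower, with 2 at an unadjusted p under 0.05, 1 called by DESeq2 and 0 by limma voom. The paralog called by DESeq2 was Tsc22d1 (-0.48, adjusted p = 0.0154), and the ASK1 gene Map3k5 had a log2 fold change of 0.24 (adjusted p = 0.245 in edgeR).

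Around Glul, genes that make, use or carry glutamine and glutamate split evenly. Of 17 tested (20 listed, Glul among them), 5 rose, 5 fell and 7 did not pass, against 12.4% of all genes higher and 13.9% lower, with a median of -0.09. The amino acid carrier Slc7a5 rose to 533 ± 106 RNA CPM with AP20187, against 173 ± 34.2 with vehicle (log2 fold change 1.62 ± 0.21, adjusted p = 0.0059), and the mitochondrial alanine aminotransferase Gpt2 rose to 144 ± 10.6, against 57.1 ± 13.02 with vehicle (1.33 ± 0.18, adjusted p = 0.00625). The cytosolic alanine aminotransferase Gpt fell to 6.79 ± 1.36 RNA CPM with AP20187, against 17.6 ± 0.841 with vehicle (-1.38 ± 0.21, adjusted p = 0.00704). The RNA calls of Glul, Slc7a5, Gpt2 and Gpt held without each RNA library in turn. In footprints Slc7a5 (1.29, adjusted p = 0.029) and Gpt2 (1.31, adjusted p = 0.0441) also rose, but Gpt2 lost its call without each of the 6 footprint libraries (adjusted p between 0.0625 and 0.148) and Slc7a5 lost its call without vehicle library 1 (adjusted p = 0.0959), 2 (0.109) or 3 (0.0829) or AP20187 library 1 (0.128). Of the stress kinase pathway around Map3k6, 12 of 15 listed genes were tested, and 0 rose, 2 fell and 10 did not pass, near the 13.9% of all genes lower and against 12.4% higher, with a median of -0.13. The 2 were the p38 target kinase Mapkapk2 (-0.68, adjusted p = 0.0137) and the JNK gene Mapk8 (-0.53, adjusted p = 0.0353), both lost without RNA vehicle library 1 (adjusted p = 0.0545 and 0.089), vehicle library 3 (0.0626 and 0.145) or AP20187 library 1 (0.0533 and 0.115), and Mapk8 also without AP20187 library 2 (0.0664). Genes induced by tissue dissociation and immediate early genes, which share regulators with several of the 8, gave 7 tested of 23 listed, of which edgeR called 0 higher and 0 lower, with 2 at an unadjusted p under 0.05, 1 called by DESeq2 and 0 by limma voom, and a median of -0.29. The 2 with the unadjusted p under 0.05 were Hspa1b (2.68) and Hspa1a (2.75), whose log2 fold changes were -0.020 and -0.12 without RNA AP20187 library 2. The gene called by DESeq2 was Junb (-0.37, adjusted p = 0.0445). In footprints edgeR called 0 of the 7 higher and 0 lower, against 0.937% and 1.6% of all genes. Footprints of Fos, Jun and Junb lay below the vehicle libraries without overlap, against 11.5% of all genes, and the others overlapped.

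The genes most like each of the 8 were found by the mean Pearson r of log2 CPM over the 6 RNA and over the 6 footprint libraries, among 6691 genes, with both treatments pooled so that r holds the group difference. Glul was most like Heph (mean r = 0.992), Sdpr (0.989) and Cdo1 (0.987). Cebpd was most like Krt80 (0.978) and Clp1 (0.968), and Cebpb was most like Calr (0.931), Sike1 (0.926) and Trmu (0.911). Arrdc2 was most like Kctd10 (0.974), Zdhhc20 (0.968) and Eps8l1 (0.965), and Nfkbia was most like Adck4 (0.980), Tnip1 (0.954) and Kin (0.952). Tnip1 encodes another inhibitor of NF-kB signalling. Tsc22d3 was most like Siglec1 (0.938), Ppox (0.917) and Def6 (0.916). The best matches were weaker for Map3k6, with Tsc1 (0.916), Smcr8 (0.880) and Git2 (0.873), and for Tgm2, with Itga10 (0.864), Prex1 (0.862) and Sec23a (0.858).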

How the data were processed

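RNA and ribosome footprints were sequenced from pellets of mammary cells, 3 libraries per group. The authors deposited raw counts per gene symbol for 7318 genes, with no normalization, in 1 table. The submitters' processing notes name STAR, Bowtie2, HTSeq, cutadapt and bcl2fastq 1.8.3 and the build mm10, with no settings; strand use, the counted region and how the listed genes were picked were not stated. Library totals are sums over the listed genes, and 3 counts served as the counting limit, which covers counting error only.

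Counts were tested with edgeR 4.0.16 (R 4.3.3): TMM scaling, filterByExpr, glmQLFit and glmQLFTest, and Benjamini-Hochberg adjustment over all genes tested, threshold 0.05. RNA and footprints were each fitted on 6 libraries with treatment only. Translational efficiency (the assay by treatment interaction) and footprints over RNA within a group were fitted on all 12. These fits took the libraries as independent, although RNA and footprint libraries share pellets, so their p-values and intervals leave out that pairing. Where a block was added to them, it was the pellet and not the library number. SE values follow from the F statistic, and 95% intervals use the fit's degrees of freedom. Log2 CPM for likeness used a prior count of 2 and genes with at least 5 CPM. Scripts were tested on simulated data. Alternatives were RLE and upper quartile scaling, no filter, a minimum of 10 counts, DESeq2 1.42.0, limma voom (limma 3.58.1), 1 model of all 12 libraries, the library number as a block, and leaving out each library.

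Same-numbered libraries were checked for pairing by the correlation of their deviations from the group means. In footprints r between AP20187 and vehicle was 0.152, 0.256 and 0.334 for libraries 1, 2 and 3. Between footprint libraries of different numbers it was -0.251 to 0.0775, so blocked values are given beside footprint results. In RNA r was 0.177 for library 1, above the lowest of these footprint values. For vehicle RNA and footprint libraries of the same pellet r was 0.057, 0.0814 and 0.322, so a low r does not exclude a shared origin. The labels do not tie the library number to a day, litter or batch. RNA and footprint libraries of the same number come from the same pellet per the labels' protocols.

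Named genes are the 8 genes, the MMTV-driven genes, the receptor (Nr3c2 was not used here), up to 4 genes per list with the smallest RNA p, and 3 most alike genes for each of the 8; 2 genes that this rule names are not reported here. The 8 genes and the lists were chosen with earlier results of these data known. Gene coordinates and lengths come from GENCODE on GRCm38, and promoters from RefSeq on GRCm38.p6.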

Additional observations from a re-analysis of the deposited data

How the results depend on the processing

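Glul and Arrdc2 RNA kept direction and call under every alternative run, and all 8 genes kept their RNA direction. Without each RNA library in turn, 247 to 1048 genes were higher and 291 to 1166 lower in RNA (906 and 1013 with all), and of the 8 genes 0 to 1 were higher and 2 lower. RNA libraries of the same number did not all deviate together (r = 0.177, -0.052 and -0.0993), and what the number stands for is not stated. With the library number as a block, 661 genes were lower in RNA and 0 of the 8 higher. Cebpb (edgeR adjusted p = 0.0511), Cebpd (0.0601) and Tgm2 (0.0361) changed call. In 1 model of all 12 libraries RNA gave 333 genes higher and 330 lower, and 0 of the 8 higher. The cause of these shifts was not tested.

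Footprint calls depended on the tool: 66 genes higher and 113 lower by edgeR, 213 and 315 by DESeq2, 353 and 362 with the block, and 283 and 475 in the model of all 12 libraries, with 3, 4 and 4 of the 8 lower, and 2 by limma voom. Without each footprint library, 0 to 84 genes were higher and 0 to 123 lower, and 0 to 1 of the 8. For translational efficiency DESeq2 called 8 genes higher and 2 lower, leaving out libraries gave 0 to 1 higher, and the pellet as a block changed no call.

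RNA list counts without each library were 3 to 6 higher for other glucocorticoid targets (2 to 3 lower), 1 to 3 higher and 0 to 2 lower for the receptor list, 0 to 1 each way for C/EBP and paralogs, 0 to 1 and 0 to 4 for NF-kB, 2 to 6 and 4 to 7 for glutamine, 0 to 1 and 0 to 2 for stress kinases, and 0 to 2 higher for dissociation genes. DESeq2 gave 4 receptor genes higher, 1 paralog lower, 1 stress kinase gene higher and 1 dissociation gene lower; limma voom gave 2 receptor genes lower. The block gave 0 receptor genes lower, 0 C/EBP genes either way and 0 NF-kB genes higher. The 12-library model gave 1 and 0 for the receptor list, 0 and 0 for C/EBP, 0 and 0 for NF-kB, 3 and 3 for glutamine and 0 stress kinase genes lower.

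Values near 0 turned sign. Footprints over RNA of Tgm2 with vehicle (0.056 with all libraries) were -0.066 by limma voom, -0.014 with the pellet as a block and -0.44 to 0.21 without each library. Without each library the efficiency change was -0.93 to 0.043 for Glul (above 0 without RNA AP20187 library 2, footprint vehicle library 2 or footprint AP20187 library 3), -0.41 to 0.034 for Nfkbia (RNA AP20187 library 3), -0.35 to 0.15 for Arrdc2 (footprint vehicle library 1) and -0.50 to 0.21 for Tgm2 (footprint vehicle library 2, AP20187 library 3). Footprints of Cebpb were -0.035 to 0.29, below 0 without AP20187 library 3. Footprints of Nr3c1 were -0.29 by limma voom, -0.24 with the block, -0.021 in the 12-library model and -0.79 to 0.41 without each library. Without each library, RNA of Cebpz was -0.25 to 0.015, of Hspa1b -0.020 to 3.21 and of Hspa1a -0.12 to 3.29, and footprints of Txn1 -0.35 to 0.024, of Crebbp -0.24 to 0.82, of Hspa1b -0.37 to 2.57 and of Hspa1a -0.28 to 2.96.

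The log2 ratio of Cebpd to Cebpb, whose leave-outs were added after seeing the data, stayed between -0.96 and -0.82 in RNA and between -1.29 and -1.08 in footprints. The lowest footprint count of Glul in a library was 43.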
